A study of Homo sapiens with 18 samples.

Results

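Newly made RNA of 10 nuclear receptor genes was followed in human neuroblastoma cells after SMARCA4, an ATPase of the SWI/SNF chromatin remodelling complex, was inhibited or degraded. The genes are ESRRG, ESRRA, NR2F1, NR2F2, NR2F6, RARA, RARB, RXRA, THRA and RORA. They were picked by symbol from the 28063 genes listed for each library, and all 10 passed the filter on low counts that left 12853 genes for testing. KELLY, SK-N-DZ and IMR-32 cells, which are neuroblastoma lines labelled wild type, received 1 uM BRM014, an inhibitor of SMARCA4 and its paralogue SMARCA2, and were set against DMSO. SMARCA4-mAID IMR-32 cells, in which SMARCA4 carries an auxin-inducible degron, received 500 uM auxin and were set against ethanol. These 8 groups of 2 libraries shared a 2 h pulse of 500 uM 4-thiouridine (4sU), a nucleoside that enters RNA made during the pulse, and 2 further KELLY libraries had neither a drug nor 4sU. The sources used here do not give the time of exposure to BRM014 or auxin, or whether the degron line is 1 clone. Auxin acts on the SMARCA4 protein, so RNA counts do not check the degradation.

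Nuclear receptors are transcription factors with a zinc-finger domain that binds short DNA motifs and a pocket that, in many of them, holds a lipid-soluble hormone. Retinoic acid receptors pair with retinoid X receptors on retinoic acid response elements, and retinoic acid is used to make neuroblastoma cells differentiate. Estrogen-related receptors act without a known natural hormone on genes of mitochondrial energy metabolism, and the COUP-TF receptors NR2F1 and NR2F2 act in neural crest and neuronal development. The start regions of the 3 genes below are shown because ESRRG and RARA were called in all 3 lines with BRM014, and because RARB is the textbook target of retinoic acid receptors. Each is 250 bases before to 50 after the start in RefSeq's GRCh38.p14, written 5′ to 3′ on the gene's strand. RefSeq start regions were found for 9 of the 10 genes.
ESRRG, chr1:217137653-217137952, minus strand: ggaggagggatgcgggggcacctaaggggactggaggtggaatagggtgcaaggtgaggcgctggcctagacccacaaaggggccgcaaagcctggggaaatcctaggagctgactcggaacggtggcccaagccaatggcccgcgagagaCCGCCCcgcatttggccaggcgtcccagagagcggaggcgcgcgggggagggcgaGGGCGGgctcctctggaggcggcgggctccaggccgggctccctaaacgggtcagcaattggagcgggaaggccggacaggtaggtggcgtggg
RARA, chr17:40308930-40309229, plus strand: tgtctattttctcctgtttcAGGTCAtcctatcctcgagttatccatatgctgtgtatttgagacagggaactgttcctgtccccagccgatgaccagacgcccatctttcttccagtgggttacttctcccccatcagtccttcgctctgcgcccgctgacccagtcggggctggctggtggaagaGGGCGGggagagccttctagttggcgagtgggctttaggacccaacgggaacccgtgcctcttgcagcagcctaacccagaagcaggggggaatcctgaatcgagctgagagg
RARB, chr3:25428013-25428312, plus strand: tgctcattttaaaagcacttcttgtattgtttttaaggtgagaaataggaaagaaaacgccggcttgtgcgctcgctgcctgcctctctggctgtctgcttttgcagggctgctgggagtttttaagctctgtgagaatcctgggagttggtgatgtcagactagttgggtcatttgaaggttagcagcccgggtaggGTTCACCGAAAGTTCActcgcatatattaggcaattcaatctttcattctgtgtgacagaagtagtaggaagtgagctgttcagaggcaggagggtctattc
Capitals mark GC boxes (GGGCGG on either strand), the receptor core motif AGGTCA, and in RARB a spaced pair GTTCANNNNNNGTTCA. The RARB start used here lies inside the gene, downstream of the GENCODE gene start at chr3:25174332. The RARB pair lies 52 to 37 bases before the start and was found on either strand in 20 of 35116 RefSeq promoters, or 0.057%. AGGTCA was found in 13.8% of those promoters and GGGCGG in 44.95%. These matches describe letters and show no binding.

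Counts assigned to genes ranged from 724913 to 1740475 over the 16 labelled libraries, with 13327 to 15279 genes detected. BRM014 libraries were shallower than DMSO libraries in IMR-32 (741970 and 775064 counts, against 1438139 and 1148208) and in SK-N-DZ (724913 and 758288 counts, against 1589230 and 1740475). A count of 3 in a library, taken as the detection limit, equalled 1.72 to 4.14 CPM, a gene's count scaled to the library's total over genes. The 10 adrenergic neuroblastoma markers summed to between 6236 and 14794 CPM in each labelled library, although the noradrenergic enzymes DBH and TH had 0 counts in the IMR-32 BRM014 libraries and in all SMARCA4-mAID libraries, and TH also in the SK-N-DZ BRM014 libraries. Of these 10 markers, 4 rose and 5 fell with BRM014 in SK-N-DZ, 2 rose and 6 fell in KELLY, 3 fell in IMR-32, and 1 rose and 1 fell with auxin, and their part in the results was not tested. Markers of other cells summed to at most 12.6 CPM for Schwann cells, 12.6 CPM for leukocytes and 2.78 CPM for endothelium. The 10 mesenchymal markers summed to 508 and 532 CPM in KELLY BRM014 libraries and 186 and 244 CPM in KELLY DMSO libraries. PRRX1, COL1A1, COL1A2, YAP1 and WWTR1 were at 0 in both KELLY BRM014 libraries. In IMR-32 the sum was lower with BRM014 (244 and 259 CPM) than with DMSO (342 and 352 CPM). Mean sums were 417 against 362 CPM in SK-N-DZ and 392 against 310.5 CPM with auxin. Of 5 mesenchymal markers tested, only TWIST1 was called, higher in KELLY and lower in IMR-32, beside 11.6% and 12.8% of all genes. The part of these differences in the results was not tested. No label says that the 2 libraries of a group are separate cultures. The p-values therefore reflect the spread of these libraries, which may be technical. Where groups of 2 libraries are said below not to overlap, the share of all genes that do the same is not given. Such a separation is therefore a description and no test. In such bulk samples, a change in the share of cells that make an RNA cannot be told apart from a change in the RNA made per cell.

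With BRM014, ESRRG rose and RARA fell in all 3 lines, whereas none of the 10 genes passed the test with auxin. Calls are at an adjusted p below 0.05 in edgeR's quasi-likelihood test with Benjamini-Hochberg adjustment over all 12853 genes. In IMR-32, 2 of the 10 genes rose (ESRRG and NR2F2) and 1 fell (RARA), where 12.8% of all genes tested were called, 6.26% higher and 6.57% lower. In KELLY, ESRRG and NR2F2 rose and NR2F6 and RARA fell, so that 4 of 10 were called beside 11.6% of all genes (6.57% higher, 4.98% lower). In SK-N-DZ, ESRRG and NR2F1 rose and NR2F6 and RARA fell, again 4 of 10, beside 19.4% of all genes (9.88% higher, 9.55% lower). With auxin, 0 of 10 were called beside 2.19% of all genes, DESeq2 also called 0, and NR2F2, RARB and RORA had unadjusted p-values of 0.0113, 0.0226 and 0.00961. The median log2 change of the 10 genes was −0.07 in SK-N-DZ (all genes tested, −0.04), 0.14 in IMR-32 (all genes, −0.02), 0.50 in KELLY (all genes, 0) and 0.10 with auxin (all genes, 0).

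**Figure D1:**
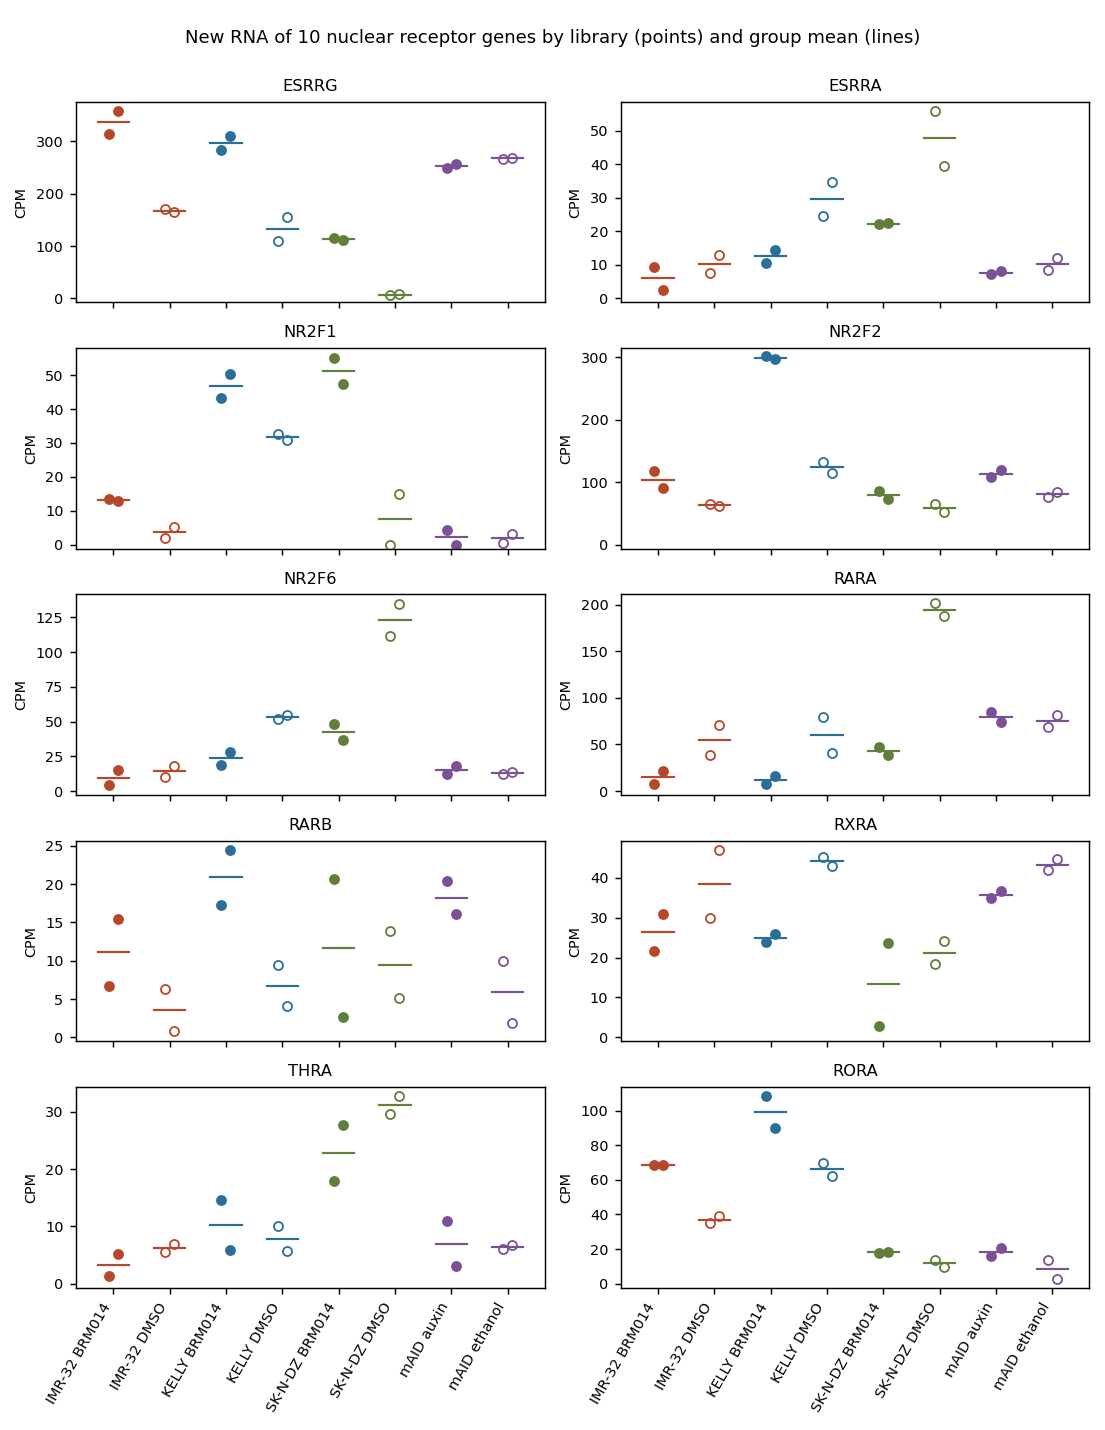
Counts scaled to library size (CPM) of each gene in every labelled library (points; filled for BRM014 or auxin, open for DMSO or ethanol) with the mean of the 2 libraries of a group (lines). ESRRG lies at 112 to 357 CPM in the BRM014 libraries of the 3 lines, and RARA at 7.97 to 46.9 CPM.

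ESRRG encodes estrogen-related receptor gamma, an orphan receptor that switches on mitochondrial genes. Its gene lies at chr1:216503246-217137755 on the minus strand (hg38, GENCODE v29). In SK-N-DZ it had 116 and 112 CPM with BRM014, against 5.66 and 9.19 CPM with DMSO. The DMSO libraries held only 9 and 16 ESRRG counts, and the groups lay far apart. The fitted change was 15.1-fold (log2 3.92, SE 0.27, 95% interval 3.39 to 4.44, adjusted p = 1.22e-22). In IMR-32 it had 314 and 357 CPM with BRM014, against 169.7 and 165 CPM with DMSO. In KELLY it had 284 and 309 CPM with BRM014, against 109 and 154.5 CPM with DMSO. Neither pair of groups overlapped. ESRRG was 2.08-fold higher in IMR-32 (log2 1.05, SE 0.15, adjusted p = 6.36e-08) and 2.34-fold higher in KELLY (log2 1.23, SE 0.15, adjusted p = 1.49e-10). These 3 calls held when any 1 library was left out.

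The size of the ESRRG response differed among the lines, and ESRRG was the only one of the 10 genes called in this quasi-likelihood test (adjusted p = 2.62e-11, beside 6.47% of all genes called). NR2F2 and NR2F1 were not called but had unadjusted p-values of 0.00773 and 0.0218 in it. The log2 response of ESRRG in SK-N-DZ exceeded that in IMR-32 by 2.86 (SE 0.32, adjusted p = 4.32e-11), where 2.61% of all genes were called. It exceeded that in KELLY by 2.69 (SE 0.32, adjusted p = 6.94e-10), where 3.9% were called. KELLY and IMR-32 differed by 0.17 (95% interval −0.25 to 0.59, adjusted p = 0.817), with none of the 10 genes called beside 3.28% of all genes. SK-N-DZ reached 114 CPM with BRM014, still under the DMSO means of 167 CPM in IMR-32 and 132 CPM in KELLY. Leaving out 1 DMSO library of SK-N-DZ, replicate 2, added NR2F1 to this list, as did the length and GC adjustment with a replicate block.

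ESRRA, which encodes estrogen-related receptor alpha, had lower means with BRM014 in each line but did not pass the test. The gene spans chr11:64305572-64316743 on the plus strand. SK-N-DZ libraries had 22.1 and 22.4 CPM with BRM014, against 56 and 39.6 CPM with DMSO. KELLY libraries had 10.6 and 14.6 CPM with BRM014, against 24.5 and 34.8 CPM with DMSO. The groups did not overlap in either line, yet the log2 differences of −1.09 (SE 0.48, adjusted p = 0.0994) and −1.18 (SE 0.48, adjusted p = 0.104) stayed short of the threshold. A fit to the SK-N-DZ libraries alone called it (log2 −1.06, adjusted p = 0.0418). After adjustment for transcript length and GC content, ESRRA was at −0.365 in SK-N-DZ, −0.745 in KELLY and −0.223 in IMR-32, and was not called. IMR-32 libraries had 7 and 2 counts (9.43 and 2.58 CPM) with BRM014, against 11 and 15 counts (7.65 and 13.1 CPM) with DMSO, and the CPM overlapped (log2 −0.72, SE 0.68, adjusted p = 0.56). That difference lay between −1.90 and −0.06 over the fits that left out 1 library. ESRRB, the remaining member of this family, had 0 and 0 counts with BRM014 in SK-N-DZ and 11 and 16 with DMSO, which is at least 1.99-fold lower at 3 counts per library, and it was not called (adjusted p = 0.0595).

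NR2F2, which encodes COUP-TFII, rose in KELLY and IMR-32. The gene spans chr15:96325938-96340263 on the plus strand. In KELLY it had 302 and 297 CPM with BRM014, against 133 and 115 CPM with DMSO. In IMR-32 it had 117 and 90.3 CPM with BRM014, against 65.4 and 61.8 CPM with DMSO. Every BRM014 library of both lines stood above the DMSO libraries. The change was 2.48-fold in KELLY (log2 1.31, SE 0.18, adjusted p = 6.48e-09) and 1.68-fold in IMR-32 (log2 0.75, SE 0.22, adjusted p = 0.0128), and the IMR-32 call was lost in 3 of the 4 fits that left out 1 library: without BRM014 replicate 1 (log2 0.55), DMSO replicate 1 (0.80) or DMSO replicate 2 (0.71). In SK-N-DZ it had 85.5 and 72.5 CPM with BRM014, against 65.4 and 52.9 CPM with DMSO. That difference was not called (log2 0.43, 95% interval −0.02 to 0.88, adjusted p = 0.19), and the test among the 3 lines did not separate them (adjusted p = 0.0924).

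NR2F1, which encodes COUP-TFI, rose in SK-N-DZ, where the 2 DMSO libraries disagreed. The gene spans chr5:93583224-93594615 on the plus strand. It had 40 and 36 counts (55.2 and 47.5 CPM) with BRM014, against 0 and 26 counts (0 and 14.9 CPM) with DMSO. Both BRM014 libraries were above both DMSO libraries. The fitted log2 change was 2.74 (SE 0.58, adjusted p = 0.000187), and DESeq2 did not call it (log2 2.78, adjusted p = 0.136). Without DMSO replicate 1, the library at 0, the change was 1.78 and remained called (adjusted p = 0.0376). Without DMSO replicate 2 no count was left in the DMSO group, and the fitted 8.97 is no measure of size. IMR-32 libraries had 13.5 and 12.9 CPM with BRM014, against 2.09 and 5.23 CPM with DMSO, from at most 10 counts a library, and NR2F1 was not called there (log2 1.93, SE 0.78, adjusted p = 0.0927). KELLY libraries had 43.2 and 50.3 CPM with BRM014, against 32.7 and 30.8 CPM with DMSO (log2 0.60, SE 0.50, adjusted p = 0.527).

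NR2F6, which encodes the related receptor EAR-2, fell in SK-N-DZ and KELLY. The gene spans chr19:17231883-17245940 on the minus strand. SK-N-DZ libraries had 48.3 and 36.9 CPM with BRM014, against 111 and 135 CPM with DMSO. In KELLY it had 18.6 and 28.4 CPM with BRM014, against 51.6 and 55.0 CPM with DMSO. The groups did not overlap in either line. The log2 changes were −1.53 (SE 0.34, adjusted p = 0.000359) and −1.13 (SE 0.35, adjusted p = 0.0202). Both calls were lost after adjustment for transcript length and GC content (log2 −0.50 in SK-N-DZ and −0.56 in KELLY), and the KELLY call was also lost without BRM014 replicate 1 (−0.87), DMSO replicate 1 (−1.17) or DMSO replicate 2 (−1.10). In IMR-32 it had 3 and 12 counts with BRM014 and 15 and 21 with DMSO (log2 −0.46, SE 0.53, adjusted p = 0.655).

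RARA, which encodes retinoic acid receptor alpha, fell in all 3 lines. The gene spans chr17:40309192-40357643 on the plus strand. In SK-N-DZ it had 46.9 and 38.2 CPM with BRM014, against 201 and 188 CPM with DMSO. KELLY libraries had 7.97 and 15.9 CPM with BRM014, against 79.2 and 40.5 CPM with DMSO. IMR-32 libraries had 8.09 and 21.9 CPM with BRM014, against 38.2 and 70.5 CPM with DMSO. Every BRM014 library lay below the DMSO libraries of its line, although the 2 DMSO libraries of KELLY stood apart from each other, as did those of IMR-32. RARA was 4.54-fold lower in SK-N-DZ (log2 −2.18, SE 0.29, adjusted p = 4.45e-09), 4.92-fold lower in KELLY (log2 −2.30, SE 0.34, adjusted p = 1.07e-07) and 3.41-fold lower in IMR-32 (log2 −1.77, SE 0.39, adjusted p = 0.000501). The call in IMR-32 was lost without BRM014 replicate 1 (log2 −1.24, adjusted p = 0.0836) or DMSO replicate 2 (−1.29, adjusted p = 0.0652), whereas the calls in KELLY and SK-N-DZ held in each of these fits. The test among the lines gave an adjusted p of 0.85, and the pairwise differences had 95% intervals of −1.63 to 0.57 for KELLY minus IMR-32, −1.45 to 0.62 for SK-N-DZ minus IMR-32 and −0.77 to 1.00 for SK-N-DZ minus KELLY.

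**Figure D2:**
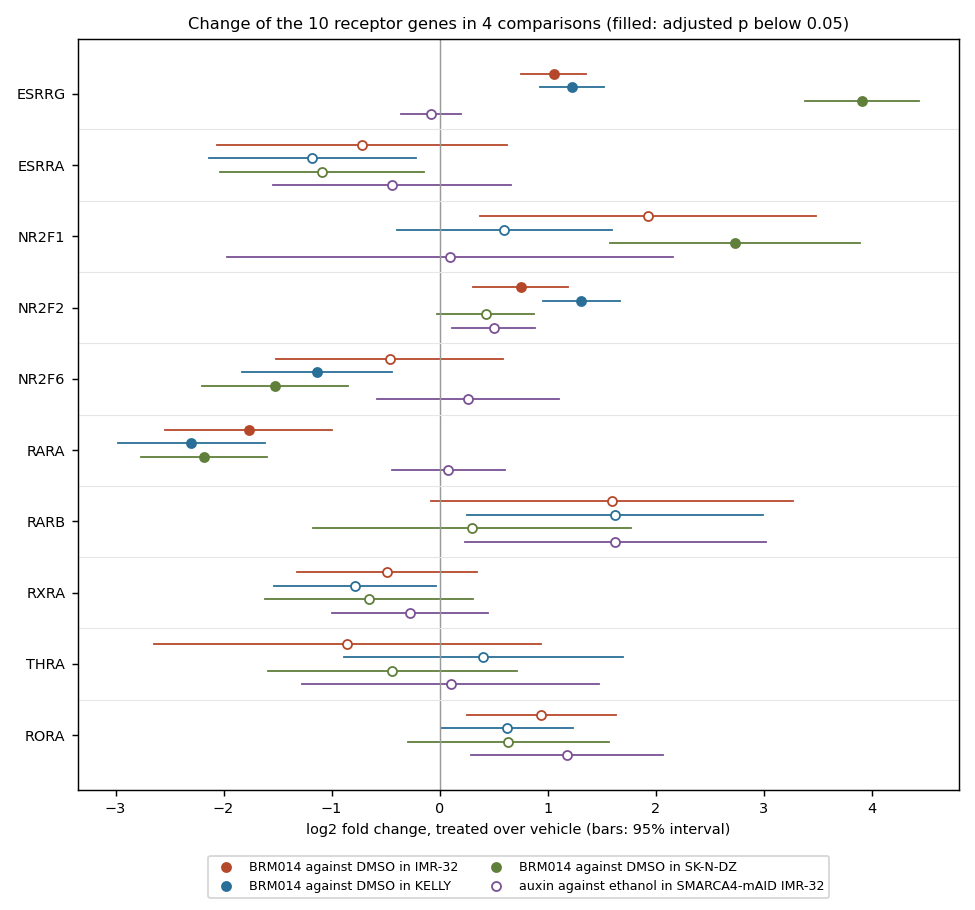
Log2 fold change of each gene, treated over vehicle, in the 4 comparisons, with 95% intervals (bars) and calls at an adjusted p below 0.05 (filled points). ESRRG in SK-N-DZ, at 3.92, lies to the right of the other comparisons, and RARA lies between −2.30 and −1.77 with BRM014 and at 0.08 with auxin.

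RARB, which encodes retinoic acid receptor beta, had few counts and passed the test in none of the 4 comparisons. The gene spans chr3:25174332-25597932 on the plus strand. It had 26 and 37 counts with BRM014 in KELLY, against 15 and 5 with DMSO. It had 5 and 12 counts in IMR-32 with BRM014, against 9 and 1 with DMSO, and 28 and 26 counts in SMARCA4-mAID cells with auxin, against 15 and 3 with ethanol. The KELLY and auxin groups did not overlap with their vehicles in CPM or in counts. The log2 changes were 1.62 in KELLY (SE 0.69, adjusted p = 0.122), 1.59 in IMR-32 (SE 0.84, adjusted p = 0.23) and 1.63 with auxin (SE 0.70, adjusted p = 0.293). With 1 library left out they lay between 1.17 and 2.39 in KELLY, 0.87 and 3.60 in IMR-32 and 0.86 and 3.25 with auxin. A fit to the KELLY libraries alone called it (log2 1.61, adjusted p = 0.0475). SK-N-DZ libraries had 15 and 2 counts with BRM014 and 22 and 9 with DMSO, and the libraries overlapped.

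RXRA, which encodes the retinoid X receptor alpha that partners retinoic acid and thyroid hormone receptors, had lower means in every comparison without passing the test. The gene spans chr9:134317098-134440585 on the plus strand. In KELLY it had 23.9 and 25.8 CPM with BRM014, against 45.3 and 42.9 CPM with DMSO (log2 −0.78, SE 0.38, adjusted p = 0.191). In SK-N-DZ it had 2 and 18 counts with BRM014, against 29 and 42 with DMSO. These 2 BRM014 libraries pull apart, since the log2 change was −2.89 and called without replicate 2 (adjusted p = 0.0121) and 0.16 without replicate 1. In IMR-32 it had 21.6 and 31.0 CPM with BRM014, against 29.9 and 47.0 CPM with DMSO, and the groups overlapped (log2 −0.48, SE 0.42, adjusted p = 0.516).

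THRA, which encodes thyroid hormone receptor alpha, had at most 57 counts in a library and no call with treatment. The gene spans chr17:40058290-40093867 on the plus strand. SK-N-DZ libraries had 13 and 21 counts (17.9 and 27.7 CPM) with BRM014, against 47 and 57 counts (29.6 and 32.8 CPM) with DMSO (log2 −0.44, SE 0.58, adjusted p = 0.67). Its log2 changes were −0.85 in IMR-32 (SE 0.90), 0.40 in KELLY (SE 0.65) and 0.10 with auxin (SE 0.69), with intervals that all held 0.

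RORA, which encodes the orphan receptor ROR alpha of the circadian clock and of cerebellar development, had higher means in all 4 comparisons but was not called. The gene spans chr15:60488284-61229319 on the minus strand. IMR-32 libraries had 68.7 and 68.4 CPM with BRM014, against 34.8 and 39.2 CPM with DMSO. KELLY libraries had 108 and 90.0 CPM with BRM014, against 69.8 and 62.3 CPM with DMSO. In SK-N-DZ it had 17.9 and 18.5 CPM with BRM014, against 13.8 and 9.77 CPM with DMSO. No pair of groups overlapped. The log2 differences were 0.94 (SE 0.35, adjusted p = 0.058), 0.63 (SE 0.31, adjusted p = 0.199) and 0.64 (SE 0.47, adjusted p = 0.384). The IMR-32 difference was called by DESeq2 (adjusted p = 0.0423) and by a fit to the IMR-32 libraries alone (adjusted p = 0.0258). Adjustment for transcript length and GC content lowered the RORA differences to 0.658 for IMR-32, 0.217 for KELLY and 0.174 for SK-N-DZ, none called. With auxin, the log2 difference was 1.18 before and 1.128 after this adjustment, also not called.

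With auxin, ESRRG had 249 and 257 CPM, against 266 and 268 CPM with ethanol. RARA had 85.0 and 74.4 CPM with auxin, against 69.1 and 81.2 CPM with ethanol. Neither gene moved by more than its error (ESRRG log2 −0.08, 95% interval −0.36 to 0.20; RARA log2 0.08, 95% interval −0.44 to 0.60). The responses to BRM014 in IMR-32 and to auxin in the degron line differed for 2 of the 10 genes, beside 1.95% of all genes: ESRRG by 1.13 (SE 0.21, adjusted p = 0.000164) and RARA by −1.85 (SE 0.48, adjusted p = 0.0178). The ESRRG difference was called in all 8 fits that left out 1 library. The RARA difference was not called after adjustment for length and GC content (−1.50, adjusted p = 0.0832), nor without IMR-32 BRM014 replicate 1, IMR-32 DMSO replicate 2, ethanol replicate 1 or auxin replicate 1 (−1.79 to −1.32). Drug, vehicle and engineered allele differ together here and cannot be told apart.

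NR2F2 had 108 and 120 CPM with auxin, against 77.03 and 84.2 CPM with ethanol, and RORA had 22 and 33 counts with auxin, against 21 and 4 with ethanol. The log2 differences were 0.50 (SE 0.19, adjusted p = 0.207) for NR2F2 and 1.18 (SE 0.45, adjusted p = 0.19) for RORA. Without ethanol replicate 1, RORA was called (log2 2.87, adjusted p = 0.0115), and without ethanol replicate 2 its change was 0.39. NR2F1 had 6 and 0 counts with auxin and 1 and 5 with ethanol, near the detection limit. The other 4 genes had log2 changes of −0.44 (ESRRA), −0.27 (RXRA), 0.10 (THRA) and 0.27 (NR2F6), each with an adjusted p of at least 0.864.

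Changes also went with base composition, and its part in the values of single genes was not tested beyond the adjustment given here. In each of the 4 comparisons, the lower the GC content of the transcript, the higher the median change: over all genes with an annotated transcript, the genes with low, middle and high GC content (equal-sized groups) had median log2 changes of 0.27, −0.02 and −0.49 in SK-N-DZ, 0.16, 0 and −0.29 in KELLY, 0.16, −0.04 and −0.37 in IMR-32, and 0.07, 0 and −0.11 with auxin. ESRRG (38.4% GC), RORA (35.8%) and RARB (42.6%) are in the low group, NR2F2 (49.8%) in the middle group, and NR2F1 (59.0%), THRA (60%), RARA (63.0%), RXRA (63.2%), ESRRA (63.2%) and NR2F6 (71.1%) in the high group. With length and GC content in the fit, ESRRG was still higher with BRM014 in SK-N-DZ (3.60), IMR-32 (0.84) and KELLY (0.97), and RARA still lower in SK-N-DZ (−1.46), IMR-32 (−1.28) and KELLY (−1.85), all called. NR2F1, a GC-rich transcript that went against the trend, was then called in IMR-32 as well (log2 2.34, adjusted p = 0.0336). RXRA, not called, was then at 0.004 in IMR-32 and 0.064 in SK-N-DZ.

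**Figure D3:**
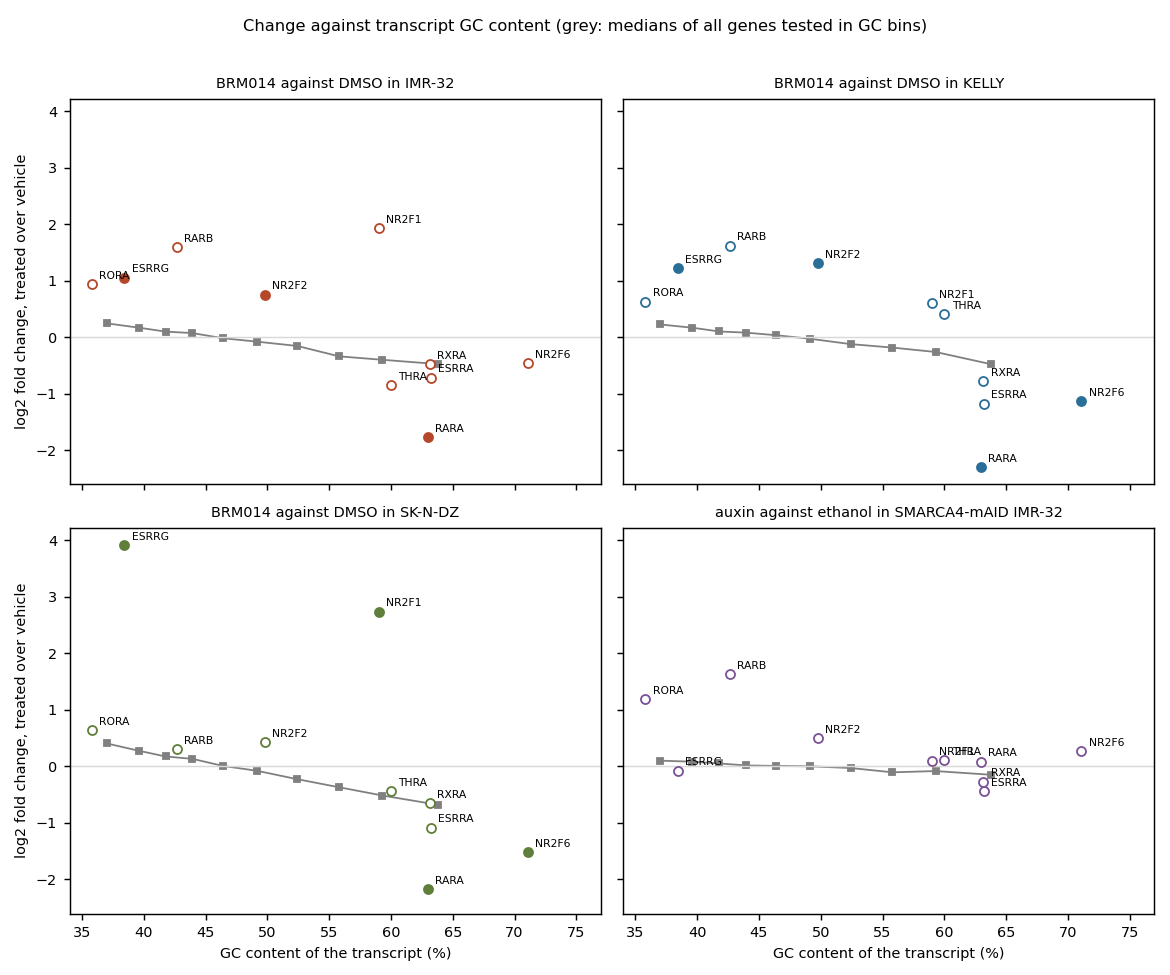
Log2 fold change of the 10 genes, treated over vehicle, against the GC content of the transcript in the 4 comparisons, with the medians of all genes tested in GC bins (grey squares) and calls filled. Genes off the grey line with BRM014 include RARA and ESRRG in each line, NR2F1 in SK-N-DZ and IMR-32, and NR2F2 and RARB in KELLY and IMR-32. RXRA lies on it in IMR-32 and SK-N-DZ. The grey line joins medians and does not show the spread of genes.

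In vehicle-treated cells the lines differed in some of the 10 genes, as they did in large shares of all genes. SK-N-DZ against KELLY differed in 8 of the 10 genes (31.8% of all genes), and SK-N-DZ against IMR-32 in 7 (44.1% of all genes). KELLY against IMR-32 differed in 5, near the share of all genes (39.6%). The degron line in ethanol against parental IMR-32 in DMSO differed in 2 (6.16% of all genes). With the length and GC adjustment and a replicate block, SK-N-DZ against IMR-32 differed in 4 of the 10, beside 4053 of all 12853 genes. Per the labels, IMR-32 grew in MEM medium but KELLY and SK-N-DZ in DMEM medium. Line and medium therefore cannot be told apart where either is set against IMR-32, and the vehicles of the degron line and its parent differ. Base composition also went with these differences. The low, middle and high GC groups had median log2 differences of −0.474, −0.041 and 0.945 in SK-N-DZ minus IMR-32. They had −0.275, −0.047 and 0.575 in KELLY minus IMR-32, and −0.177, 0 and 0.392 in SK-N-DZ minus KELLY. Its part in the values of single genes was not tested beyond the length and GC adjustment. ESRRG was lowest in SK-N-DZ, at 7.43 ± 2.50 CPM, then 132 ± 32.4 CPM in KELLY, 167 ± 3.58 CPM in IMR-32 and 267 ± 1.18 CPM in the degron line (SD, n = 2 each). SK-N-DZ was 17.0-fold below KELLY (log2 −4.09, SE 0.24, adjusted p = 5.69e-27) and 24.3-fold below IMR-32 (log2 −4.60, SE 0.24). KELLY was 1.43-fold below IMR-32 (adjusted p = 0.00561), a call that was lost without normalization factors (log2 −0.36), after the length and GC adjustment (−0.11), or without DMSO replicate 1 of either line (−0.49 without that of IMR-32, −0.28 without that of KELLY). The degron line was 1.57-fold above its parent (log2 0.65, SE 0.15, adjusted p = 0.00137).

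RARA and NR2F6 were highest in SK-N-DZ. RARA averaged 195 ± 9.53 CPM there, against 59.8 ± 27.4 CPM in KELLY and 54.4 ± 22.8 CPM in IMR-32, with 75.1 ± 8.57 CPM in the degron line. KELLY and IMR-32 did not differ beyond their spread (log2 0.03, 95% interval −0.53 to 0.59), nor did the degron line and its parent (log2 0.46, adjusted p = 0.416). SK-N-DZ was 3.22-fold above KELLY (adjusted p = 7.09e-08) and 3.29-fold above IMR-32 (adjusted p = 5.84e-08), and the second call was lost after the length and GC adjustment (log2 0.50, adjusted p = 0.131). NR2F6 averaged 123 ± 16.7 CPM in SK-N-DZ, 53.3 ± 2.45 CPM in KELLY, 14.4 ± 5.56 CPM in IMR-32 and 12.7 ± 1.04 CPM in the degron line, which did not differ from its parent (adjusted p = 0.908). The NR2F6 difference of SK-N-DZ from KELLY was lost after the same adjustment (log2 0.085 with it, 1.22 without). The NR2F6 difference of SK-N-DZ from IMR-32 went from 2.98 to 1.11 with the adjustment and stayed called. THRA averaged 31.2 ± 2.25 CPM in SK-N-DZ and 6.27 to 7.86 CPM in the other 3 groups, which were not separated from each other. Its difference of SK-N-DZ from IMR-32 (log2 2.17, adjusted p = 0.00349) was lost after the adjustment (1.30) and without IMR-32 DMSO replicate 1 (adjusted p = 0.0517), and that from KELLY (log2 1.96, adjusted p = 0.00804) without KELLY DMSO replicate 2 or SK-N-DZ DMSO replicate 2.

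NR2F2 was highest in KELLY, at 124 ± 12.6 CPM, against 63.6 ± 2.49 CPM in IMR-32 and 59.2 ± 8.90 CPM in SK-N-DZ, and the last 2 lines were not separated (adjusted p = 0.354). NR2F1 had 32.7 and 30.8 CPM in KELLY, against 2.09 and 5.23 CPM in IMR-32, a log2 difference of 2.99 (SE 0.68, adjusted p = 0.000177) that DESeq2 did not call (adjusted p = 0.0782). NR2F1 in SK-N-DZ DMSO, at 0 and 14.9 CPM, was below KELLY (log2 −2.03, adjusted p = 0.00366), a call lost without SK-N-DZ DMSO replicate 1 (−1.07) and in DESeq2 (adjusted p = 0.271). RORA averaged 66.0 ± 5.30 CPM in KELLY, 37.0 ± 3.13 CPM in IMR-32, 11.8 ± 2.88 CPM in SK-N-DZ and 8.19 ± 8.13 CPM in the degron line. KELLY and IMR-32 were not separated (log2 0.69, adjusted p = 0.0913), and SK-N-DZ was below both KELLY (log2 −2.47, adjusted p = 4.24e-08) and IMR-32 (log2 −1.78, adjusted p = 8.94e-05). The KELLY difference from IMR-32 was called after the length and GC adjustment (1.204), without normalization factors and in a fit to the compared libraries alone. The degron line lay 4.64-fold below its parent (log2 −2.22, SE 0.42, adjusted p = 6.86e-05), from 21 and 4 counts, and was not called without ethanol replicate 2 (log2 −1.42, adjusted p = 0.0828). ESRRA averaged 47.8 ± 11.6 CPM in SK-N-DZ, 29.7 ± 7.26 CPM in KELLY, 10.4 ± 3.83 CPM in IMR-32 and 10.4 ± 2.53 CPM in the degron line. Its calls above IMR-32, in SK-N-DZ (log2 2.08) and KELLY (1.37), were both lost after the length and GC adjustment (0.84 and 0.70), and the KELLY call also without IMR-32 DMSO replicate 1 (1.02) or KELLY DMSO replicate 2 (1.11). RXRA averaged 21.2 ± 4.16 CPM in SK-N-DZ, under 44.1 ± 1.69 CPM in KELLY (adjusted p = 0.028) and 38.5 ± 12.1 CPM in IMR-32 (adjusted p = 0.0327). The RXRA difference from KELLY was lost in each of the 4 fits that left out 1 library (log2 −1.26 to −0.85), and that from IMR-32 in 3 of 4 (−1.28 to −0.64 over the 4 fits) and without normalization factors (−0.84). After the length and GC adjustment, RXRA in SK-N-DZ was called below both lines, by larger log2 differences of −1.564 from KELLY and −2.233 from IMR-32. RARB averaged 3.56 to 9.51 CPM in the 4 vehicle groups, and no pair was separated.

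**Figure D4:**
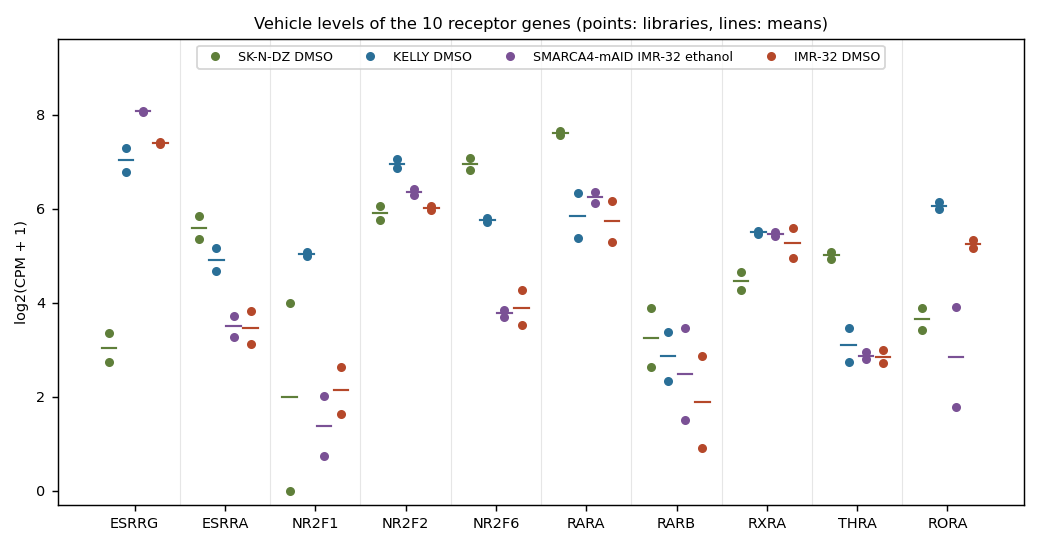
Vehicle levels of the 10 genes as log2(CPM + 1) in the libraries (points) and as means (lines) of SK-N-DZ, KELLY, the SMARCA4-mAID line and IMR-32. ESRRG is lowest in SK-N-DZ, where RARA, NR2F6 and THRA are highest.

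Some reads of these genes could belong to neighbours, as the sources used here do not give the use of strand in counting. THRA overlaps NR1D1 on the opposite strand by 1081 bases and MED24 by 2926 bases. NR2F1 overlaps NR2F1-AS1 by 2425 bases, RARB overlaps TOP2B by 28 bases and ESRRA overlaps TRMT112 by 284 bases, all on opposite strands, and RORA-AS1 and RARA-AS1 lie against RORA and RARA. AC010646.1, a protein-coding GENCODE gene on the same strand as NR2F6, overlaps it by 10001 bases and is not among the genes listed in the files. NR2F1-AS1 moved with NR2F1 in SK-N-DZ, with 5 and 10 counts with BRM014 against 0 and 0 with DMSO, at least 5.56-fold higher at 3 counts per library (adjusted p = 0.00496), a call that was lost without either DMSO library and in DESeq2. TOP2B, a DNA topoisomerase, rose with BRM014 in SK-N-DZ (log2 0.70), KELLY (1.23) and IMR-32 (0.59). NR1D1 and TRMT112 passed the test in none of the 4 comparisons. NR2F2-AS1 had 0 counts, and the part of any neighbour in the values above was not tested.

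Calls in the rest of the nuclear receptor superfamily went both ways. Of 48 receptor genes in the files, 33 were tested and 6 had no count in any labelled library. The 23 that were tested beside the 10 genes above held 3 rises and 1 fall in SK-N-DZ, 2 rises and 2 falls in KELLY, 1 rise and 1 fall in IMR-32, and none with auxin, with median log2 changes of 0, 0, 0.16 and 0.03. In all genes tested, 19.4% were called in SK-N-DZ, 11.6% in KELLY, 12.8% in IMR-32 and 2.19% with auxin. NR1D2, the clock repressor REV-ERB beta, rose in KELLY (log2 1.11, adjusted p = 2.02e-09) and SK-N-DZ (0.56, adjusted p = 0.00107). NR3C1, the glucocorticoid receptor, rose in KELLY (0.89, adjusted p = 0.00102) and IMR-32 (0.70, adjusted p = 0.0226). The fatty-acid receptors PPARG and PPARD fell in KELLY: PPARG had 1 and 2 counts with BRM014, against 27 and 22 with DMSO (log2 −3.96, SE 0.84, adjusted p = 0.000261), and PPARD had 26 and 38 counts, against 138 and 86 (log2 −1.84, SE 0.36, adjusted p = 7.38e-05). RXRG, the retinoid X receptor gamma, had 0 and 0 counts with BRM014 in IMR-32, against 10 and 16 with DMSO, at least 2.64-fold lower at 3 counts per library (adjusted p = 0.0177). The remaining calls, all in SK-N-DZ, were NR4A2 and NR2C2, which rose, and NR4A1, which fell. With auxin, 5 of the 23 had an unadjusted p below 0.05, DESeq2 called 0, and NR4A2 was called without the filter on low counts. The share of all genes below that unadjusted threshold is not given here, so the 5 cannot be read as an excess. After the length and GC adjustment, the calls of NR3C1 in both lines and of NR1D2, NR2C2 and NR4A1 in SK-N-DZ were lost, leaving NR4A2 alone there. Calls over all genes in SK-N-DZ went from 2498 to 1792. Leaving out 1 library lost NR3C1 in IMR-32 and NR2C2 in each of 4 fits, RXRG without either BRM014 library or DMSO replicate 2, NR4A2 without BRM014 replicate 2, and NR4A1 without BRM014 replicate 1 or DMSO replicate 2, and DESeq2 did not call RXRG.

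**Figure D5:**
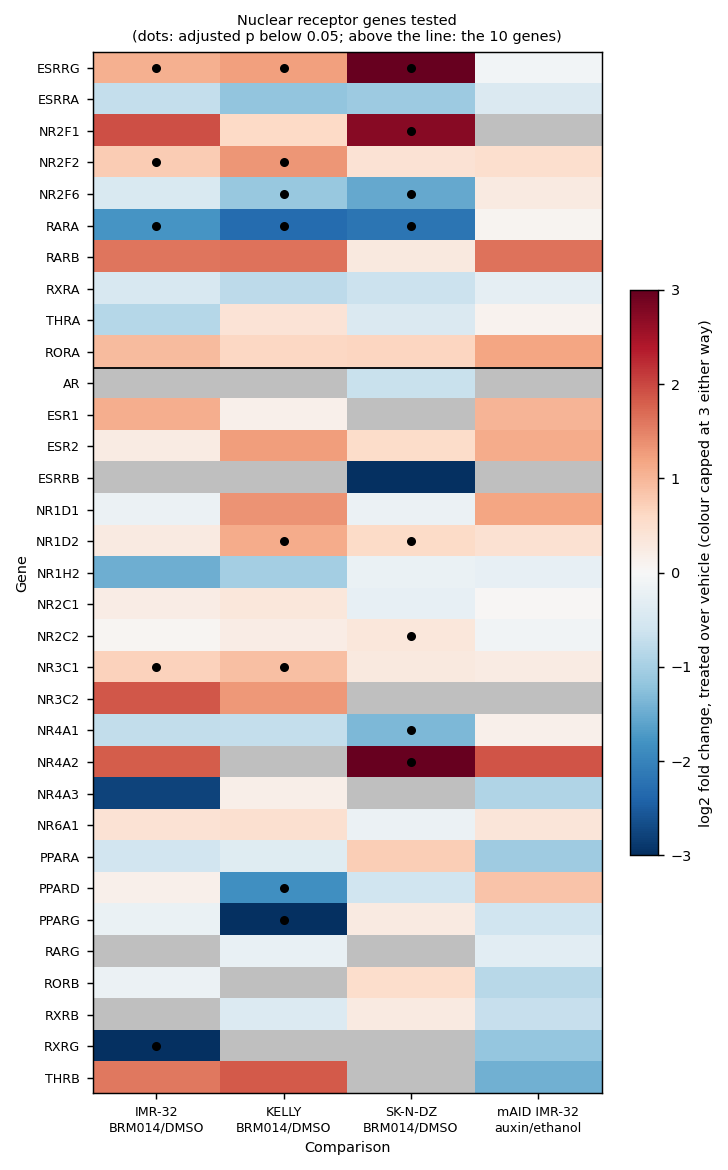
Log2 fold change, treated over vehicle, of the 33 nuclear receptor genes tested, with the 10 genes above the line and 23 others below it. Dots mark an adjusted p below 0.05, grey marks cells with fewer than 10 summed counts in both groups, and no cell of the auxin column has a dot.

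Genes that retinoic acid receptors are known to act on did not share one direction. Of 20 listed, 11 were tested: 2 rose and 4 fell in SK-N-DZ, 1 rose and 4 fell in IMR-32, 1 rose and 1 fell in KELLY, and 1 rose and 2 fell with auxin, with median log2 changes of −1.11, −1.25, 0.01 and −0.73. All genes tested had 19.4% called in SK-N-DZ, 12.8% in IMR-32, 11.6% in KELLY and 2.19% with auxin. MEIS1, a homeodomain factor, rose with BRM014 in SK-N-DZ (log2 1.44), KELLY (1.31) and IMR-32 (0.52). RET, a receptor tyrosine kinase, had 1 and 1 counts with BRM014 in SK-N-DZ, against 166 and 250 with DMSO, and 1 and 9 in KELLY, against 256 and 204 (log2 −6.42 and −5.54). RAI1 fell in SK-N-DZ (−1.15) and IMR-32 (−1.25) and with auxin (−0.62, adjusted p = 0.0354). NEDD9, an adhesion scaffold, fell in IMR-32 (−2.94) and with auxin (−1.61, adjusted p = 0.0268). After the length and GC adjustment RAI1 was called in IMR-32 alone, and the list held 3 rises and 1 fall in SK-N-DZ. Calls over all genes in SK-N-DZ were then 1792, in place of 2498. The auxin calls of RAI1 and NEDD9 were lost without either ethanol library or without auxin replicate 2. Of 21 genes that make, carry or break down retinoic acid, 8 were tested. STRA6, a retinol-uptake receptor that is also in the response list, was the one called: it had 16 and 36 counts with BRM014 in SK-N-DZ, against 114 and 168 with DMSO (log2 −1.26, adjusted p = 0.00581), and 0 and 0 counts in IMR-32, against 14 and 22, at least 3.65-fold lower at 3 counts per library. In SK-N-DZ, DESeq2 called RDH10, a retinol dehydrogenase, higher and did not call STRA6. The SK-N-DZ call of STRA6 was also lost without BRM014 replicate 1 or DMSO replicate 2 and after the length and GC adjustment, which called STRA6 higher in KELLY.

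Of 27 receptor coregulators, all tested, 6 rose and 3 fell in SK-N-DZ, 3 rose and 2 fell in KELLY, 2 rose and 2 fell in IMR-32, and 1 rose and 1 fell with auxin, with median log2 changes of 0.10, 0.09, −0.05 and −0.02, beside 19.4%, 11.6%, 12.8% and 2.19% of all genes called. PNRC1, a proline-rich coactivator, rose in SK-N-DZ (log2 2.20), KELLY (1.38), IMR-32 (2.46) and with auxin (0.90, adjusted p = 0.0108). PPRC1, a PGC-1 family coactivator of mitochondrial genes, fell with BRM014 in SK-N-DZ (−0.77), KELLY (−0.54) and IMR-32 (−0.82), and had −0.18 with auxin (adjusted p = 0.626). NRIP1, the corepressor RIP140, rose in SK-N-DZ (0.73) and KELLY (0.43) and fell with auxin (−0.69, adjusted p = 4.08e-06). TBL1XR1, a subunit of the NCoR corepressor complex, rose in SK-N-DZ (0.68). These 4 genes had at least 48 counts in every labelled library. After the length and GC adjustment, 3 coregulators rose and 1 fell in SK-N-DZ: the calls of PPRC1 and TBL1XR1 there and of NRIP1 in KELLY were lost, and TBL1XR1 was called lower in KELLY and IMR-32. Calls over all genes in SK-N-DZ fell to 1792 from 2498 with that adjustment. The auxin call of PNRC1 was lost in each fit that left out 1 of its libraries, the KELLY call of PPRC1 without BRM014 replicate 1 or DMSO replicate 1, and that of NRIP1 without DMSO replicate 2.

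Among genes known to act downstream of estrogen-related receptors, 3 calls were made beside the ESRRG rise: of 16 tested, GABPA rose in SK-N-DZ (log2 0.87, adjusted p = 0.000271), LDHB rose in KELLY (0.34, adjusted p = 0.0385) and IDH3A fell in KELLY (−1.14, adjusted p = 0.000611), with none in IMR-32 or with auxin and medians of −0.05, −0.07, −0.12 and 0.19 in SK-N-DZ, KELLY, IMR-32 and with auxin. The shares of all genes called in these 4 comparisons were 19.4%, 11.6%, 12.8% and 2.19%, and they apply to the next lists too. Of 7 genes of thyroid hormone supply and response that were tested, KLF9 rose in SK-N-DZ (log2 2.21, adjusted p = 0.0162), from 8 and 11 counts with BRM014 against 6 and 3 with DMSO. Of 18 clock genes tested, 3 rose in SK-N-DZ, 3 in KELLY and 2 in IMR-32, and 1 fell in IMR-32. CRY1, a clock repressor, rose in SK-N-DZ (0.63, adjusted p = 0.0489), KELLY (1.03) and IMR-32 (0.76), CLOCK rose in SK-N-DZ (0.89), and BHLHE41 rose in KELLY, with 79 and 121 counts with BRM014 against 7 and 9 with DMSO (3.55). The SK-N-DZ calls of GABPA and CLOCK were lost after the length and GC adjustment. The calls of LDHB (without BRM014 replicate 1 or DMSO replicate 1), of KLF9 (without replicate 2 of either group), of CRY1 in SK-N-DZ (without either BRM014 library or DMSO replicate 2) and of CRY1 in IMR-32 (without BRM014 replicate 1 or either DMSO library) rested on single libraries.

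As a description over the 8 labelled group means (log2(CPM + 1), Pearson r among 10933 genes), the genes most like ESRRG were TTLL7 (r = 0.988), ADGRL2 (0.977) and LHX9 (0.971). Those most like RARA were DDX54 (0.994), TEDC1 (0.981) and AEN (0.971). Those most like NR2F2 were NMNAT2 (0.989), MAP3K13 (0.969) and PIGA (0.967). NR2F6 had SPATA33 (0.991), NR2F1 had AGTR1 (0.978), ESRRA had KLHL21 (0.991), RORA had DAB1 (0.965), RARB had FAM177A1 (0.972), RXRA had ERCC6L (0.972) and THRA had PLCG1 (0.988) as the closest gene. The 8 means share lines and base composition.

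In the 2 unlabelled KELLY libraries, which held 5395 and 4432 gene counts, RARA had 1 and 2 counts and the other 9 genes 0. The 3 RARA counts were 1.7% of the 176 in the KELLY DMSO libraries. Over all genes, the unlabelled counts were 0.348% of those in the KELLY DMSO libraries, so the RARA share was higher, though from 3 counts.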

How the data were processed

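Per the labels' protocols, 4sU-labelled RNA was treated with iodoacetate, polyadenylated RNA was selected, and libraries were amplified by PCR. The deposited values are whole-number counts per gene, which the file names mark as counts of converted reads. Per the submitters' processing notes, HISAT, HTSeq, DESeq2 and hg38 were used, with no version or role stated. The sources used here do not give the annotation, the strand setting or the rule for calling a read converted. Reads assigned to no gene, 46.4% to 57.4% of all counts in labelled libraries, and ambiguous reads, 1.11% to 1.71%, were left out of library sizes and tests. PCR reads without molecular identifiers are not independent molecules, so detection limits cover counting error only.

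CPM was computed over the rows that name a gene. Treatment and vehicle contrasts were fitted with edgeR 4.0.16 (R 4.3.3) in 1 quasi-likelihood model of the 16 labelled libraries in 8 groups (8 residual degrees of freedom), with TMM normalization, edgeR's expression filter at a minimum count of 10, and Benjamini-Hochberg adjustment over 12853 genes. The common biological coefficient of variation was 0.143. Alternatives were other normalizations, other filters, DESeq2 1.42.0, fits to the compared libraries alone, an offset for transcript length and GC content (values for 97.3% of genes tested), a replicate block, and leaving out each library. The pairwise differences between lines were added after the test among lines had been seen. Gene positions, lengths and overlaps came from GENCODE v29 and promoters from RefSeq. Figures were drawn with matplotlib 3.10.9.

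All 10 receptors are named throughout. Of other lists, the up to 4 genes called in at least 1 BRM014 or auxin comparison with the smallest p were named, with partners that overlap a receptor. Others were named after their values were seen. The receptors and all lists were chosen with earlier results of these data known.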

Additional observations from a re-analysis of the deposited data

Results flagged for a closer look

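ESRRG stood out because its response to BRM014 differed among IMR-32, KELLY and SK-N-DZ in a test of the difference itself (adjusted p = 2.62e-11 in edgeR's quasi-likelihood test), with log2 changes of 1.05, 1.23 and 3.92. The DMSO level in SK-N-DZ rested on 9 and 16 counts. ESRRG also differed between BRM014 and auxin in IMR-32 cells, by 1.13 on the log2 scale (adjusted p = 0.000164). RARA differed between BRM014 and auxin by −1.85 (adjusted p = 0.0178), a call that was lost after adjustment for length and GC content. The causes were not tested.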

How the results depend on the processing

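Counts of the 10 genes called (3 in IMR-32, 4 in KELLY, 4 in SK-N-DZ, 0 with auxin) kept within 1.5 times under other normalizations, filters, DESeq2 and fits to the compared libraries alone. Leaving out 1 library gave 1 to 3 calls in IMR-32, 0 to 1 with auxin, 1 to 2 among the lines, 1 to 2 for BRM014 minus auxin, 3 to 5 for KELLY minus IMR-32 in vehicle and 1 to 2 for the degron line minus its parent. These fits also have fewer samples. With the length and GC adjustment, calls were 1 in place of 2 for BRM014 minus auxin and 4 in place of 7 for SK-N-DZ minus IMR-32 in vehicle, and the cause was not tested. Calls over all genes also fell with this adjustment, to 211 from 250 for BRM014 minus auxin and to 1792 from 2498 for BRM014 in SK-N-DZ. With the replicate block added, they fell to 4053 from 5665 for SK-N-DZ minus IMR-32 in vehicle.

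The numbers shared by libraries do not pair them: deviations of same-numbered libraries correlated at −0.034 to 0.011. The replicate block alone left the counts of calls at 3, 4, 4 and 0 in the treatment comparisons. With the length and GC adjustment and the replicate block together, calls were 2 among the lines, 1 for BRM014 minus auxin and 4 for SK-N-DZ minus IMR-32 in vehicle. For the last of these, calls over all genes fell to 4053 from 5665.

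In the 4 treatment comparisons, the sign turned in 19 fits of uncalled genes. With the length and GC adjustment, without and with the block, these were NR2F6 (0.094 and 0.068) and RXRA (0.004 and 0.002) in IMR-32, and RXRA (0.064 and 0.031) and THRA (0.151 and 0.163) in SK-N-DZ. With 1 library left out, the lowest and highest values were −1.726 and 0.183 for NR2F6 in IMR-32, −0.389 and 0.914 for THRA in KELLY, −2.89 and 0.162 for RXRA and −1.796 and 1.15 for RARB in SK-N-DZ, and, with auxin, −4.445 (with only an auxin library at 0 left) and 1.486 for NR2F1, −0.024 and 0.199 for RARA, −1.008 and 0.763 for THRA and −0.047 and 0.503 for NR2F6. For BRM014 minus auxin, leaving out 1 library gave −1.46 to 0.382 for ESRRA, −1.923 to 0.556 for RORA, −1.658 to 1.972 for RARB, −0.509 to 0.134 for RXRA and −2.19 to 0.125 for THRA. In vehicle, NR2F1 in SK-N-DZ minus IMR-32 was 0.961 and uncalled, and ran from −5.276 (called, but with only an SK-N-DZ library at 0 left, so no measure of size) to 1.92 (called). The sign also turned in other vehicle differences that were uncalled throughout, of ESRRA, NR2F6, RARA, RARB, RXRA and THRA. The length and GC adjustment turned uncalled differences of ESRRA and RXRA for BRM014 minus auxin and of ESRRA, RARA, RXRA and THRA in vehicle, and DESeq2 and the replicate block turned that of RARB for BRM014 minus auxin. Over all genes, leaving out 1 library lowered the calls to 904 to 1085 from 1650 in IMR-32, to 859 to 1151 from 1485 in KELLY, to 1614 to 1856 from 2498 in SK-N-DZ, to 124 to 139 from 281 with auxin, to 131 to 174 from 250 for BRM014 minus auxin and to 367 to 495 from 792 for the degron line minus its parent.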
